A study of Mus musculus with 10 samples.

Results

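The genes described here encode 7 surface and adhesion proteins of satellite cells: the cadherin Cdh15, the integrin subunits Itga7 and Itgb1, the immunoglobulin family proteins Vcam1 and Ncam1, the proteoglycan Sdc4 and the hyaluronan receptor Cd44. Their members in the data were the CUT&RUN peaks that the deposited tables list with these gene symbols, taken peak by peak and summed for each gene. That gave 11 of 44925 H4K20me1 peaks and 257 of 51322 Pol II S2P peaks. Of the 7 genes, 6 had a listed peak in each table, out of 14565 genes with an H4K20me1 peak and 11251 genes with a Pol II S2P peak. Cdh15 had none, because every peak over it is listed with a gene model of 4435 kb, Gm20388 in GENCODE M21 and Galnt2 in the tables, which spans chr8:119910841-124345722 and holds the whole of Cdh15. Peaks that overlap Cdh15 were therefore taken by position in an added alternative chosen after the data were seen, and its values are marked as such throughout.

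The study asked how loss of the histone methyltransferase KMT5B (also called SUV4-20H1) alters H4K20 monomethylation and transcription in muscle stem cells (MuSCs), the satellite cells of skeletal muscle. Both groups carried Pax7CreERT, a tamoxifen-inducible Cre driven from the satellite cell gene Pax7, on a C57BL/6 background. Ctrl is labelled Pax7CreERT/Suv4-20h1WT and has unmodified Kmt5b, and sKO is labelled Pax7CreERT/Suv4-20h1KO and has floxed Kmt5b alleles that Cre inactivates in Pax7-expressing cells of adult mice. MuSCs were purified from muscle with magnetic beads and cultured, so they were proliferating myogenic cells and not quiescent satellite cells in place. CUT&RUN, in which an antibody tethers a nuclease that releases the DNA around its target, was run with antibodies against H4K20me1 and against RNA polymerase II phosphorylated at serine 2 (Pol II S2P), with 2 libraries per genotype and antibody. The methods call the 2 libraries of a group biological replicates, and the labels do not say how many animals each was made from. An IgG library of each genotype was not analysed here.

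The adhesion proteins work in pairs with ligands. ITGA7 joins ITGB1 to form a laminin receptor that holds the satellite cell to the basal lamina, while CDH15 (M-cadherin) and NCAM1 bind their own kind on neighbouring myogenic cells. VCAM1 is bound by the integrin that contains ITGA4, SDC4 carries heparan sulfate chains that hold fibronectin and growth factors, and CD44 binds hyaluronan. H4K20me1 is written by KMT5A, is found over the bodies of transcribed genes and is carried on to the dimethyl state by KMT5B, whereas Pol II S2P marks polymerase that is elongating through a gene.

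The sequences below show DNA at the points where Pol II S2P was measured over these genes. RefSeq promoter windows of 300 bases (250 before the start and 50 after it, GRCm38.p6) were held for Cdh15, Itgb1, Sdc4 and Cd44, 4 of the 7 genes, and not for Itga7, Vcam1 and Ncam1. Gene positions below are those of GENCODE, whose starts for Sdc4 and Cdh15 differ from those of RefSeq. The windows of these genes lie inside the GENCODE gene. The 250 bases before the start are printed for Sdc4 and Itgb1, whose windows differ in the number of GC boxes and are each overlapped by a Pol II S2P peak. For Vcam1 and Cdh15 the central 300 bases of their strongest Pol II S2P peak are printed. Sequences run 5′ to 3′ on the strand of the gene, and capitals mark matches to 6 motifs searched on both strands: CAGCTG (a MyoD-type E-box), CAGGTG (an E-box), TGANTCA (AP-1), GGGCGG (the GC box), TATAAA (the TATA box) and CATTCC (TEAD). No 2 of these matches overlap.
Sdc4 promoter, chr2:164443189-164443438, minus strand: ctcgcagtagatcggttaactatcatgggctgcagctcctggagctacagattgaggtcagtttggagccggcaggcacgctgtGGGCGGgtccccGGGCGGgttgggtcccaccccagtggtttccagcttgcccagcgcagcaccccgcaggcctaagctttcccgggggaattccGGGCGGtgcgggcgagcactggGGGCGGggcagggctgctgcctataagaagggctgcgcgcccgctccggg
Itgb1 promoter, chr8:128685404-128685653, plus strand: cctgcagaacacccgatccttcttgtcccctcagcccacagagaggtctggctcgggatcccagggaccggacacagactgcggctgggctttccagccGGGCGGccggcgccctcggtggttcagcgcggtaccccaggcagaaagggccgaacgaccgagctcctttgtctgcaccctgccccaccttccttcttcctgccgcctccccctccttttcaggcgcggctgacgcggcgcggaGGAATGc
Vcam1 peak, chr3:116114092-116114391, minus strand: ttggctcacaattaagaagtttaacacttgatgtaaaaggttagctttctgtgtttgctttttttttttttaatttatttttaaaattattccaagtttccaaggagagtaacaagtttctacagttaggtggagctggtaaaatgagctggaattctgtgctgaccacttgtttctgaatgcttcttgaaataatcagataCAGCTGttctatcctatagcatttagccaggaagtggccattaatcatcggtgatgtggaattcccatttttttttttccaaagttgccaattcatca
Cdh15 peak, chr8:122851301-122851600, plus strand: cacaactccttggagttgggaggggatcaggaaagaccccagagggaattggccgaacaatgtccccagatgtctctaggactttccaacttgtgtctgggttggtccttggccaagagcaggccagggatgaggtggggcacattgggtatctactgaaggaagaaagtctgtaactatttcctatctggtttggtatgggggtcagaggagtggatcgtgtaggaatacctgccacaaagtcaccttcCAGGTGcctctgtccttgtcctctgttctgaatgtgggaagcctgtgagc

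The Sdc4 window held 4 GC boxes and the Itgb1 window held 1 GC box and 1 TEAD match, on the opposite strand. The full windows of Cdh15 and Cd44, not printed, held 3 GC boxes and 1 GC box, and none of the other 5 motifs. A GC box was in 35.9% of 32544 promoter windows, a TEAD match in 14.6%, CAGCTG in 16.4%, CAGGTG in 20.3%, TATAAA in 13.6% and AP-1 in 7.79%. GC content was 67.7% for Sdc4, 67.3% for Itgb1, 61.3% for Cdh15 and 58% for Cd44, beside a median of 53% over all windows. The Vcam1 peak centre held 1 CAGCTG and the Cdh15 peak centre 1 CAGGTG, motifs present in 24.6% and 17.4% of 34541 Pol II S2P peak centres of that length. These matches describe letters in a window and not a bound factor.

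The values are scores, whole numbers that stand for the coverage of a peak after scaling by S2 cell spike-in DNA, and they are not divided by peak length. Summed over all peaks, H4K20me1 scores were 15218720 and 20432644 in Ctrl against 32194136 and 35046570 in sKO, and Pol II S2P scores were 3257665 and 4243685 in Ctrl against 4885638 and 3435908 in sKO. Over the 13750 autosomal genes with a mean H4K20me1 score over 50, the median log2 fold change of sKO over Ctrl was 1.11, and it was 0.13 once the libraries were set to equal totals. For Pol II S2P the medians over 8531 genes were 0.09 and -0.05. Each member is therefore read below against the median of all genes. Read depth was not taken from the scores, so no counting interval is given. Over the targeted gene Kmt5b the Pol II S2P score was 24 and 62 in Ctrl against 48 and 22 in sKO, which overlap, and a score over a whole gene does not check the deletion.

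The cell type was checked against fixed markers. Of 12 satellite cell and myoblast markers, 5 of which are members here, 9 had a listed Pol II S2P peak and 8 passed the minimum, including Pax7, Myod1 and Des. Myf5, Myf6 and Cdh15 were listed without a Pol II S2P peak. The summed Pol II S2P score of this list, to which Ncam1 gave most, was 14068 and 18450 in Ctrl against 20127 and 13831 in sKO. The fibro-adipogenic list came to 1901 and 998 in Ctrl against 941 and 709 in sKO, all of it from Col1a1 and Col1a2, with no listed peak for Pdgfra, Dcn or Lum. The sKO pair was thus below the Ctrl pair for this list. Endothelial markers summed to between 160 and 319, glial markers to between 94 and 231, immune markers to between 960 and 1523 and smooth muscle markers to between 1023 and 1384 in the 4 libraries, with overlapping genotypes. The part of other cells in the results below was not tested.

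H4K20me1 over the member genes differed between genotypes by very different amounts. It was called higher in sKO for 4 of the 6 genes tested, Vcam1, Itga7, Sdc4 and Cd44, and for 92.3% of all genes tested, so a call as such was no mark of these genes. The sKO pair lay wholly above the Ctrl pair for 5 of the 6, with Ncam1 the exception, and for 96.5% of all genes. What set the members apart from each other was the size, which ran from a log2 fold change of 0.18 for Ncam1 to 2.86 for Vcam1. In such bulk profiles, more H4K20me1 in every cell and more cells that carry it cannot be told apart.

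**Figure D1:**
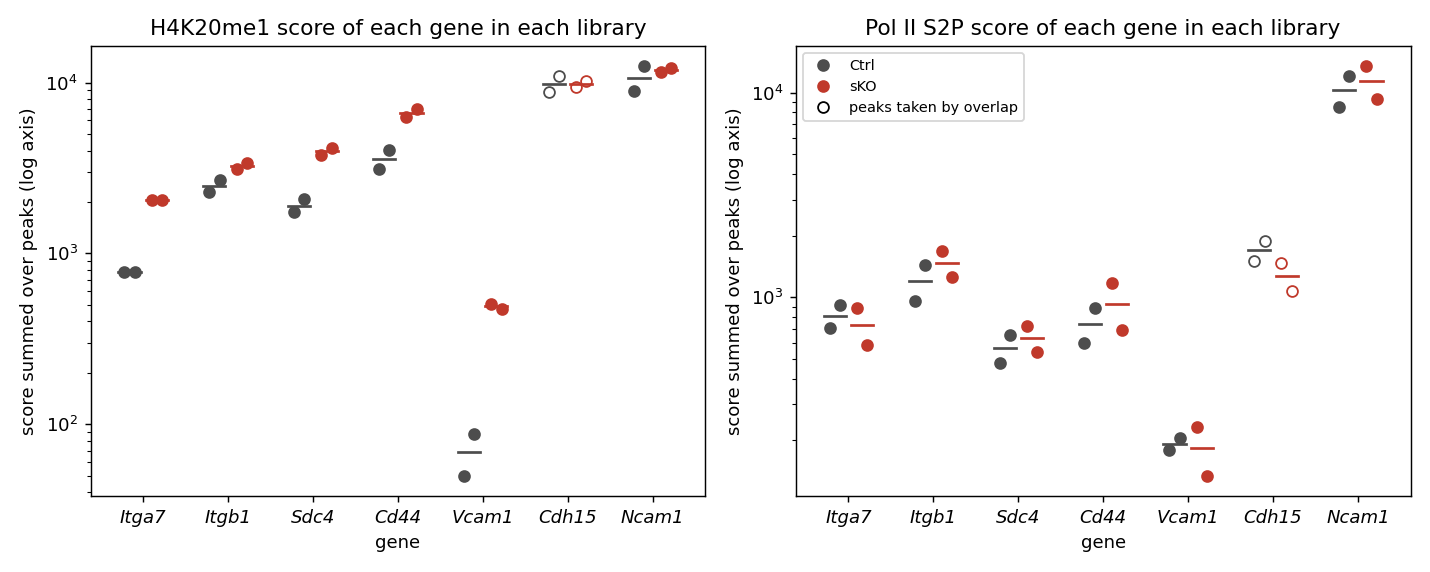
Scores of the 7 genes in each library for H4K20me1 (left) and Pol II S2P (right), on log axes; each point is 1 library, each bar the mean of 2, and open points mark Cdh15, whose peaks were taken by overlap. The H4K20me1 scores of Vcam1 rose from 50 and 88 in Ctrl to 509 and 471 in sKO, while the Pol II S2P scores of the 2 genotypes overlapped for every gene but Cdh15.

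The integrin pair comes first. Itga7, which encodes the laminin-binding α7 subunit, lies at chr10:128933818-128958282 on the plus strand under 1 H4K20me1 peak of 38 kb, 64.4% of which is in Itga7 and which also reaches Mettl7b. Its scores were 776 and 777 in Ctrl against 2048 and 2052 in sKO. The replicates nearly coincided on the deposited scale, although the totals of the 2 Ctrl libraries differed. The genotypes stood far apart, with a log2 fold change of 1.40 ± 0.27 (SE; adjusted p = 1.10e-06 by limma), 0.29 above the median of all genes.

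Itgb1 encodes the β1 subunit with which ITGA7 pairs and lies at chr8:128685654-128733200 on the plus strand, also under 1 peak, of 59.4 kb, which reaches into Ccdc7a. Its scores were 2274 and 2689 in Ctrl against 3128 and 3363 in sKO. Although the sKO pair was above the Ctrl pair, the log2 fold change of 0.39 ± 0.28 (adjusted p = 0.170 by limma) did not pass the test, and it stood 0.72 below the median of all genes, above only 3.97% of them. Without Ctrl replicate 2 it was 0.51 and passed. The ratio of Itga7 to Itgb1 within a library does not depend on how libraries are scaled. On the log2 scale it was -1.55 and -1.79 in Ctrl against -0.61 and -0.71 in sKO, higher in sKO by 1.01 with a pooled SD of 0.13 (exact permutation test, two-sided p = 0.333, the smallest that 2 libraries against 2 allow).

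Vcam1 gave the largest H4K20me1 difference of the 7 genes. It lies at chr3:116109949-116129688 on the minus strand, and only 41% of its length was under H4K20me1 peaks, beside a median of 76.2% over 11557 autosomal coding genes with a listed peak. Its summed score was 50 and 88 in Ctrl against 509 and 471 in sKO, and the Ctrl mean of 69 was near the minimum of 50. The log2 fold change was 2.86 ± 0.34 (adjusted p = 1.07e-14 by limma), larger than that of 99.6% of the genes tested and 1.75 above their median.

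The 2 Vcam1 peaks, one of 5.8 kb across the start and one of 3.2 kb near the end of the gene, gave alike values. The peak at the start scored 24 and 56 in Ctrl against 299 and 280 in sKO, for a log2 fold change of 2.94 ± 0.43. The peak towards the end scored 26 and 32 in Ctrl against 210 and 191 in sKO, for a log2 fold change of 2.75 ± 0.51. Both were called higher, beside 90.1% of all peaks tested, but their Ctrl means were under the minimum of 50, so they were tested only because of their sKO scores and the calls are a description.

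Ncam1, the longest member at 297 kb (chr9:49502136-49798925, minus strand), carried 5 H4K20me1 peaks that together covered 90.0% of it. The summed scores were 8866 and 12430 in Ctrl against 11595 and 12221 in sKO. The sKO values lay within the range of the Ctrl values, and the log2 fold change of 0.18 ± 0.30 (adjusted p = 0.546 by limma) was above that of only 1.33% of genes.

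The sum hid larger changes by the gene end than nearer the start. The peak that crosses the gene end, centred 302.5 kb from the start, scored 233 and 304 in Ctrl against 698 and 696 in sKO, for a log2 fold change of 1.39 ± 0.28 (adjusted p = 5.54e-06 by limma). The next peak, centred at 282.6 kb, scored 466 and 640 in Ctrl against 874 and 947 in sKO, for a log2 fold change of 0.74 ± 0.27 (adjusted p = 0.00933 by limma). Both were called higher in sKO, beside 90.1% of all peaks tested, so the calls as such did not set them apart. From the median of all peaks they differed by 0.24 and -0.41. The call of the peak at 282.6 kb was lost without sKO replicate 1 (0.79) or sKO replicate 2 (0.68).

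The 3 peaks nearer the start did not pass the test. Taken towards the start, they differed from the median of all peaks by -0.93, -1.01 and -1.16. Those centred at 212.1 and 151.7 kb had log2 fold changes of 0.21 ± 0.29 and 0.14 ± 0.30. The peak nearest the start, 124 kb long and centred at 69.3 kb, scored 4519 and 6499 in Ctrl against 5254 and 5494 in sKO, with the sKO libraries inside the Ctrl range and a log2 fold change of -0.01 ± 0.30. Within a library, the log2 ratio of the end peak to the peak nearest the start was -4.28 and -4.42 in Ctrl against -2.91 and -2.98 in sKO, a difference of 1.40 with a pooled SD of 0.08 (exact permutation test, two-sided p = 0.333, the smallest possible). These peaks had the largest and the smallest log2 fold change of the Ncam1 peaks, so their ratio describes the extremes. Only 11.2% of the end peak lies inside Ncam1, and no other coding gene lies under it.

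**Figure D2:**
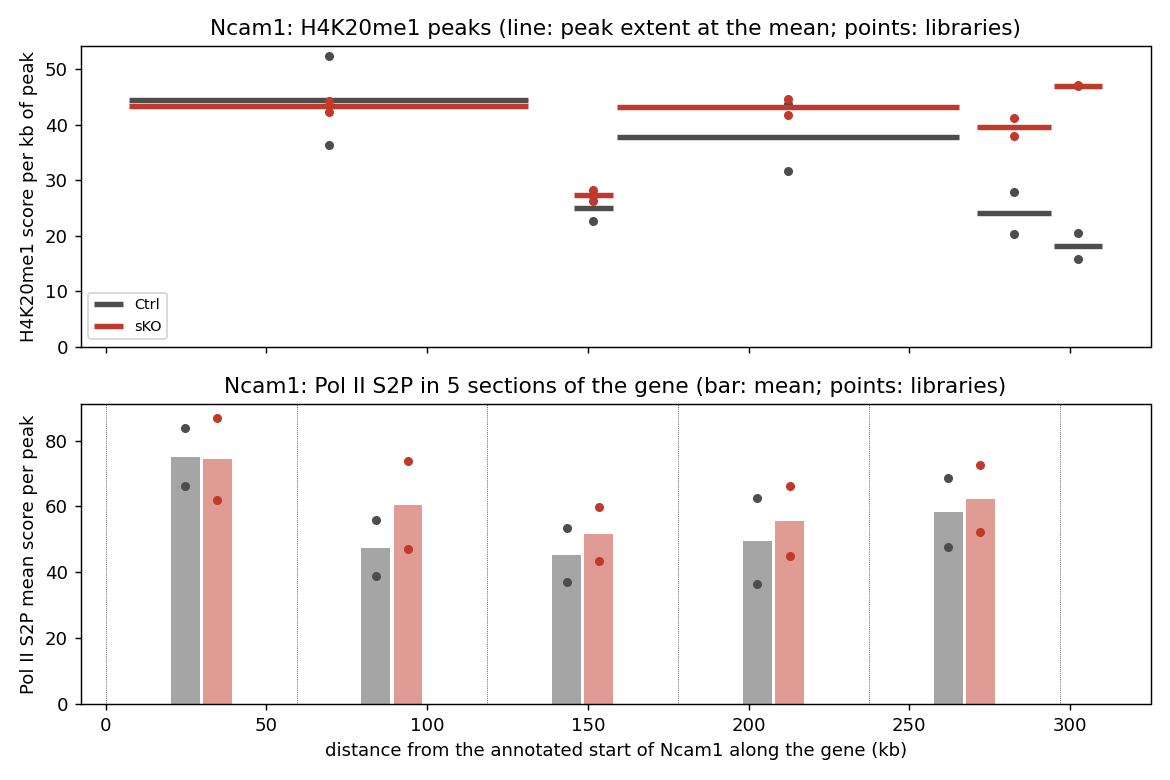
Ncam1 from its annotated start to its end. Upper panel, H4K20me1 score per kb of each peak, with lines at the mean and over the extent of the peak and points for the 2 libraries of each genotype; lower panel, mean Pol II S2P score per peak in each of 5 equal sections of the gene, with bars for the mean. H4K20me1 differed at the 2 peaks by the gene end, with means of 18.1 in Ctrl and 47.1 in sKO per kb at the last, whereas Pol II S2P overlapped between genotypes in every section.

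Sdc4, a coreceptor for fibronectin and growth factors at chr2:164424247-164443887 on the minus strand, lay under 1 peak of 72 kb, only 27.3% of which is inside Sdc4. The peak covers 5 coding genes, so its value is shared with Sys1, Rbpjl, Trp53tg5 and Gm20458. Its scores of 1737 and 2070 in Ctrl against 3777 and 4159 in sKO did not overlap. The log2 fold change was 1.06 ± 0.28 (adjusted p = 2.75e-04 by limma), within 0.05 of the median of all genes.

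Cd44, at chr2:102811141-102901665 on the minus strand, lay under a peak of 124.8 kb that reaches into Slc1a2. Its scores were 3109 and 4010 in Ctrl against 6268 and 7020 in sKO, again without overlap. The log2 fold change was 0.91 ± 0.29 (adjusted p = 0.00217 by limma), 0.20 below the median. Within a library the log2 ratio of Sdc4 to Cd44 was higher in sKO by only 0.15, with a pooled SD of 0.06 (exact permutation test, two-sided p = 0.333). The calls of both genes were lost when either sKO library was left out, with log2 fold changes of 0.99 to 1.13 for Sdc4 and 0.83 to 0.99 for Cd44 in those fits.

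Cdh15, at chr8:122847966-122867397 on the plus strand, lay wholly under a peak of 193.6 kb, of which 10% is in Cdh15 and which also covers Ankrd11. By overlap its scores were 8752 and 10928 in Ctrl against 9379 and 10252 in sKO. The sKO values lay inside the Ctrl range, and the log2 fold change was 0.00 ± 0.29 (adjusted p = 0.990 by limma), above that of only 0.398% of the 15073 genes tested with peaks taken by overlap, of which 91.8% were called higher. A value shared over so long a peak cannot be assigned to Cdh15 alone.

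Read against equal library totals, the members parted in both directions. Setting equal totals takes out any change in the total, so a gene called lower there had a smaller share of the total. The paper reports more H4K20me1 in sKO MuSCs by western blot and immunofluorescence. A smaller share does not show a loss of the mark. Vcam1 stayed called higher, with a log2 fold change of 1.89 ± 0.25, 1 of 6 members beside 20.8% of all genes. Itgb1 and Ncam1 were called lower, at -0.59 ± 0.06 and -0.80 ± 0.04, 2 of 6 members beside 5.69% of all genes. Itga7, at 0.42 ± 0.10, Sdc4, at 0.08 ± 0.07, and Cd44, at -0.07 ± 0.05, were not called. Of the 11 member peaks, the 2 of Vcam1, which passed the minimum only through their sKO scores, were called higher, beside 22.6% of all peaks, and 4 were called lower, beside 4.41%, namely that of Itgb1 and the 3 of Ncam1 nearest its start. The peak over Cdh15, taken by overlap and not among the 11, was also called lower, at -0.98 ± 0.04. Equal totals moved all genes and their median together, and the sign for Itgb1, Ncam1 and Cd44 rested on the scale, as did that for Sdc4 with medians over tested genes set equal (-0.10).

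**Figure D3:**
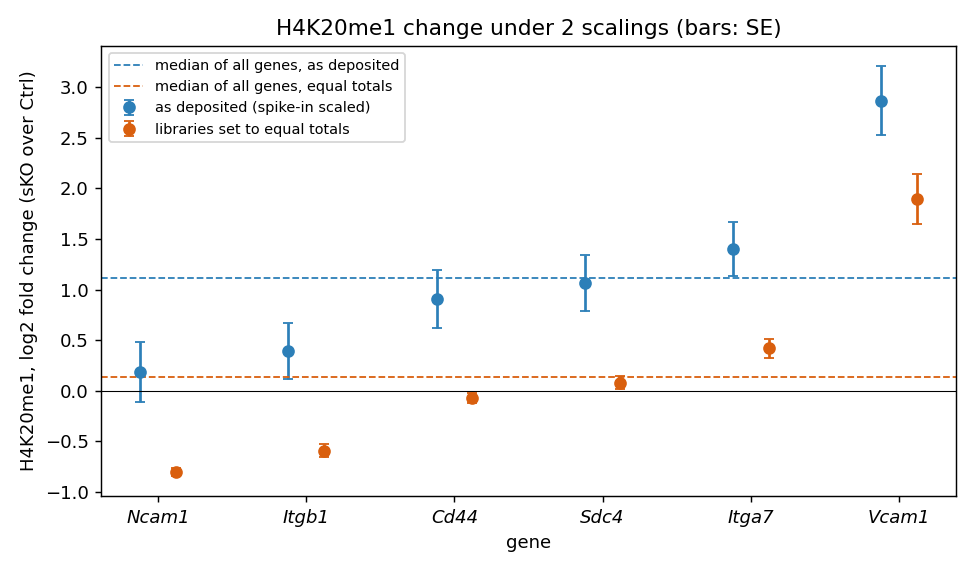
H4K20me1 log2 fold change of sKO over Ctrl for the 6 genes with listed peaks, as deposited and with libraries set to equal totals; bars are the SE of the limma fit on 2 libraries per genotype and dashed lines the median of all 13750 genes. As deposited, Vcam1 lies at 2.86 and Ncam1 at 0.18 around the median line of 1.11, and equal totals moves the genes and the line down together.

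Levels were compared between genes per kb of peak. In Ctrl, the order of the mean H4K20me1 scores per kb was Cdh15 (by overlap, 50.8 ± 7.9 SD, n = 2), Itgb1 (41.8 ± 4.9), Ncam1 (38.0 ± 9.0), Cd44 (28.5 ± 5.1), Sdc4 (26.4 ± 3.3), Itga7 (20.4 ± 0.02) and Vcam1 (7.7 ± 3.0). Neighbours from Cdh15 down to Sdc4 overlapped in their libraries, whereas Itga7 stood below Sdc4 and Vcam1 below Itga7. In sKO, Sdc4, Itgb1, Vcam1, Itga7, Cd44 and Cdh15 lay between 50.7 and 55.1 with every neighbour overlapping, and Ncam1 at 42.5 ± 1.6 stood below them.

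Over the 12 peaks that cover the 7 genes, the highest score per kb was 10.9 and 5.85 times the lowest in the Ctrl libraries and 2.49 and 2.11 times in the sKO libraries. Without the 2 Vcam1 peaks, a choice made after the data were seen, it was 2.87 and 2.76 times in Ctrl and 2.05 and 2.04 times in sKO. Over all 40902 peaks tested, the 90th percentile was 2.27 and 2.50 times the 10th in Ctrl and 1.56 and 1.58 times in sKO. Among all genes, the level of Vcam1 per kb of peak was at the 0.604 percentile in Ctrl and the 77.3 percentile in sKO, and that of Ncam1 at the 95.5 and 9.06 percentiles. Itgb1 went from the 97.6 to the 78.2 percentile and Itga7 from the 33.6 to the 74.8.

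A lower starting level went with a larger difference, across the genome as in the members. With the level read in Ctrl replicate 1 and the change taken against Ctrl replicate 2, Spearman's rho was -0.58 over all peaks tested and -0.83 over the 12 member peaks. With the Ctrl libraries exchanged it was -0.70 and -0.86. The 2 Vcam1 peaks, the lowest per kb in Ctrl, passed the minimum mean of 50 only through their sKO scores. Of 41008 autosomal peaks, that minimum kept 40902, and its part in the relation was not tested. The points share their libraries, and the 5 Ncam1 peaks and the 2 Vcam1 peaks share a gene, so these are descriptions without a test.

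**Figure D4:**
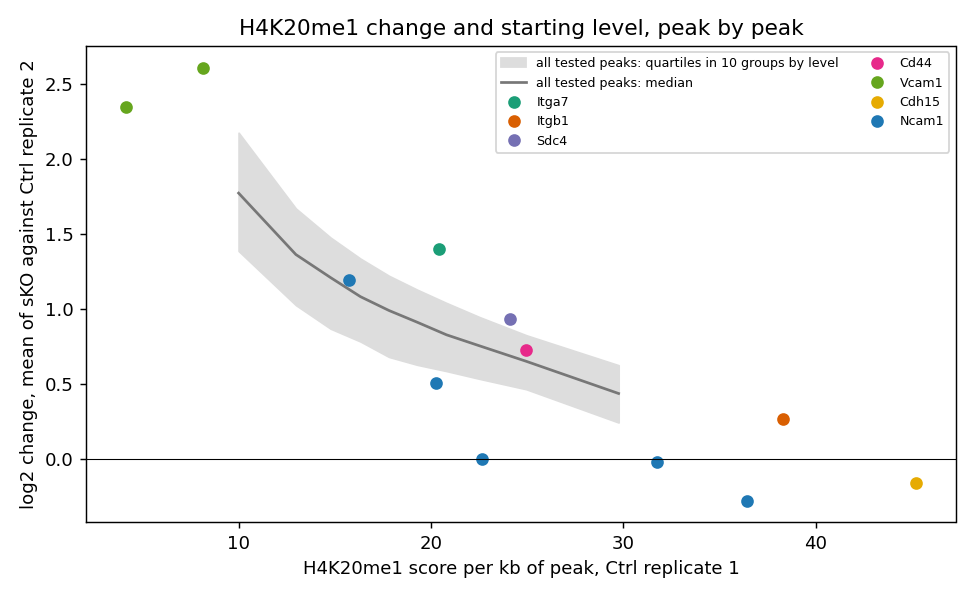
H4K20me1 log2 change of the mean sKO score against Ctrl replicate 2, by score per kb of peak in Ctrl replicate 1, for the 12 peaks over the 7 genes; the line and band are the median and quartiles of all 40902 tested peaks in 10 equal groups by level. The median change is 1.77 for the peaks of lowest level and 0.44 for those of highest level, and the members run from 2.35 and 2.61 at the 2 Vcam1 peaks to -0.27 at the Ncam1 peak nearest the start. The 2 Vcam1 peaks passed the minimum only through their sKO scores.

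Pol II S2P over the member genes was not called different between genotypes. None of the 6 genes passed the test in either direction (limma, adjusted p = 1 for each; 0 of 6 at an unadjusted p under 0.05), and 0% of the 8531 genes tested did. In none of the 6 genes with listed peaks did the sKO pair stand wholly above or wholly below the Ctrl pair, beside 9.41% and 4.52% of all genes. Under equal totals no member gene was called, beside 1.27% of genes called higher and 0.856% called lower. The SE of the 6 genes ran from 0.41 (Vcam1) to 0.43 (Itgb1) as deposited. Under equal totals it ran from 0.09 (Ncam1) to 0.19 (Vcam1). The paper reports raised Pol II S2P occupancy over many genes in sKO, called with DESeq2, and more Pol II S2P by western blot. With such SEs, a missing call here does not show an unchanged level.

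Neither integrin subunit passed the test. Itga7 scored 709 and 915 in Ctrl against 884 and 581 in sKO, for a log2 fold change of -0.17 ± 0.43. Itgb1 scored 953 and 1442 in Ctrl against 1678 and 1261 in sKO, for a log2 fold change of 0.31 ± 0.43. With 1 library left out, Itga7 ran from -0.47 to 0.13 and Itgb1 from 0.013 to 0.61. Within a library, the log2 ratio of Itga7 to Itgb1 was -0.43 and -0.66 in Ctrl against -0.92 and -1.12 in sKO, lower in both sKO libraries by a mean difference of -0.48 with a pooled SD of 0.15 (exact permutation test, two-sided p = 0.333, the smallest possible). The H4K20me1 ratio of the same genes differed in the other direction.

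Vcam1, whose H4K20me1 differed most, had the lowest Pol II S2P sum, 179 and 205 in Ctrl against 233 and 134 in sKO, and its log2 fold change was -0.12 ± 0.41. Of its 3 Pol II S2P peaks, the strongest, shown above by its sequence, took 76.5% and 65.4% of the score in Ctrl and 68.2% and 71.6% in sKO. That peak lies 15.4 kb from the start, over a coding exon and the intron beside it, within the H4K20me1 peak towards the gene end. No Pol II S2P peak was listed at the Vcam1 start.

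Ncam1 had 186 listed Pol II S2P peaks, the second largest number among 11251 genes, whose median was 2. The summed score was 8456 and 12105 in Ctrl against 13420 and 9329 in sKO, for a log2 fold change of 0.15 ± 0.41. Genotypes overlapped in each of 5 equal sections of the gene, where the log2 ratio of the means ran from -0.01 in the section at the start to 0.35 in the next. Of the 186 peaks, 174 were intronic, 11 touched an exon and 1 lay at the start.

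The remaining members also overlapped between genotypes. Sdc4 scored 477 and 652 in Ctrl against 721 and 537 in sKO, with a log2 fold change of 0.16 ± 0.43. Cd44 scored 600 and 884 in Ctrl against 1170 and 692 in sKO, with a log2 fold change of 0.30 ± 0.43. By overlap, Cdh15 scored 1504 and 1880 in Ctrl against 1470 and 1072 in sKO over 14 peaks, the single gene of the 7 whose sKO pair lay below its Ctrl pair, and its log2 fold change of -0.42 ± 0.43 (adjusted p = 1 by limma) did not pass the test.

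Compared per kb of gene, Pol II S2P levels in Ctrl were 87.1 ± 13.7 (SD, n = 2) for Cdh15, 34.6 ± 8.7 for Ncam1, 33.2 ± 6.0 for Itga7, 28.7 ± 6.3 for Sdc4, 25.2 ± 7.3 for Itgb1, 9.73 ± 0.93 for Vcam1 and 8.20 ± 2.22 for Cd44. Cdh15 stood above the rest, the 4 genes from Ncam1 to Itgb1 overlapped neighbour by neighbour, and Vcam1 and Cd44 formed a lower pair that overlapped. In sKO, Cdh15 was again first, at 65.4 ± 14.5, and Cd44 and Vcam1 were last, at 10.3 ± 3.7 and 9.30 ± 3.55.

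Peak by peak, 91 of the 257 Pol II S2P peaks of the members had a mean score over 50, and none of the 91 was called (limma), beside 0.0492% of all peaks. At an unadjusted p under 0.05 there were 5 of 91, which is 5.49%, beside 3.46% of all peaks, 3 in Itgb1 and 2 in Ncam1, and 3 of the 5 passed the minimum of 50 only through their sKO scores. Under equal totals 2 were called higher, both in Itgb1, beside 2.51% of all peaks, and 2 lower, both in Ncam1, beside 1.19%. The 2 Itgb1 peaks lie over exons, 39.0 and 41.5 kb from the start, and scored 53 and 121 in Ctrl against 160 and 152 in sKO, and 33 and 38 against 108 and 65, the latter passing the minimum only through its sKO scores. The 2 Ncam1 peaks are intronic, 5.82 and 1.95 kb from the start, and scored 390 and 421 in Ctrl against 302 and 233 in sKO, and 305 and 387 against 274 and 228. The genotypes did not overlap at any of the 4.

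At the start of Cdh15, a Pol II S2P peak at chr8:122847831-122848753 overlaps the promoter window named above. Picked after its values were seen, it scored 158 and 182 in Ctrl against 77 and 91 in sKO, and its log2 fold change of -1.01 ± 0.40 did not pass the test (adjusted p = 1 by limma). It was the lowest of the 7 Cdh15 peaks tested, which ran from -1.01 to 0.19 with a median of -0.44, and is not among the 257 listed peaks. Under equal totals it was called lower, at -1.15 (adjusted p = 0.00152 by limma). Of the 7 Cdh15 peaks tested, 3 were called lower and 0 higher on that scale, beside 1.19% and 2.51% of all peaks. Of all 257, 43 (16.7%) had an sKO pair above the Ctrl pair, beside 13.7% of peaks listed with an autosomal gene, and 15 (5.84%) had it below, beside 7.37%. Those in the first group came mainly from Ncam1, with 29, and Itgb1, with 7, and Itga7 and Ncam1 gave 6 each of those in the second.

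Most Pol II S2P peaks of the members lay under the broad H4K20me1 peaks. Of the 257 Pol II S2P peaks, 238 (92.6%) overlapped an H4K20me1 peak, beside 69.4% of 37256 Pol II S2P peaks listed with an autosomal gene. The 19 that did not were all in Ncam1, which gave 186 of the 257. There 89.8% of the Pol II S2P peaks overlapped an H4K20me1 peak, beside 90.0% of the gene covered by such peaks. The H4K20me1 peaks covered all of Itga7, Itgb1, Sdc4, Cd44 and Cdh15, so a Pol II S2P peak inside these genes overlapped one by position alone.

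The genes nearest to each member in their scores per kb of gene over the 8 libraries of both antibodies, among 5849 genes tested for both, were Hsp90b1 and Trir for Itga7, Orc3 and Znf335 for Itgb1, Zdhhc1 and Cdc25b for Vcam1, Wsb1 and Tnpo2 for Ncam1, Emc10 and Cyp27b1 for Sdc4, and Sarnp and Vezf1 for Cd44. The Euclidean distance on the log2 scale was smallest for Itgb1 and Orc3, at 0.29, and largest for Vcam1 and Cdc25b, at 0.78. None of these pairs joins 2 members.

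Other genes of adhesion were read from 4 fixed lists. Of the matrix ligands, which include laminins, fibronectin and collagens, H4K20me1 was called higher in sKO for 19 of 20 tested, with a median log2 fold change of 1.38. Of the other adhesion receptors it was called higher for 31 of 33, with a median of 1.21, and of the cytoplasmic adaptors that tie receptors to actin for 25 of 29, with a median of 0.95. Of further satellite cell surface genes it was called higher for 19 of 20, with a median of 1.48. No list gene was called lower, and the shares stood near the 92.3% of all genes, whose median was 1.11. Under equal totals 6, 9, 3 and 10 genes of the 20, 33, 29 and 20 tested, in that order, were called higher, beside 20.8% of all genes, and 1, 2, 2 and 1 lower, beside 5.69%.

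Partners of the members were fixed by name. Lama2, the laminin chain bound by the integrin of ITGA7 and ITGB1, had H4K20me1 scores of 1775 and 2339 in Ctrl against 4891 and 5277 in sKO, for a log2 fold change of 1.32 ± 0.28 (adjusted p = 9.63e-06 by limma). Itga4, whose integrin binds VCAM1, scored 171 and 325 in Ctrl against 707 and 677 in sKO, for a log2 fold change of 1.55 ± 0.28 (adjusted p = 1.60e-07 by limma). Fermt2, which encodes the integrin activator kindlin-2, had 0.70 ± 0.27 (adjusted p = 0.0131 by limma) and was called higher, while Has2, a hyaluronan synthase, had no listed H4K20me1 peak.

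At the ends of the lists, the H4K20me1 log2 fold changes were 2.93 ± 0.42 for Cav1, which encodes caveolin-1, 2.74 ± 0.50 for the hyaluronan synthase Has1, 2.33 ± 0.38 for the chemokine receptor Cxcr4, 2.11 ± 0.34 for the integrin subunit Itgb3, 2.09 ± 0.27 for the laminin chain Lama5, 1.99 ± 0.29 for the focal adhesion protein Tns3, 1.88 ± 0.27 for Itgb4 and 1.65 ± 0.28 for plakoglobin (Jup), all called higher. Cav1 and Has1 had Ctrl means under 50 and were tested only because of their sKO scores. Thbs1 (0.67 ± 0.27) and Notch1 (0.79 ± 0.28) were also called higher. Ctnnb1, which encodes the β-catenin that binds cadherins, had -0.12 ± 0.28, with scores of 2673 and 3560 in Ctrl against 2646 and 3024 in sKO, and did not pass the test. Nor did Bsg (0.12 ± 0.27), Gpc1 (0.26 ± 0.28), Cdon (0.32 ± 0.28), Ctnna2 (0.38 ± 0.51) and Hspg2 (0.44 ± 0.28).

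For Pol II S2P no gene of the 4 lists was called (limma; 0 of 15, 22, 27 and 15 tested at an unadjusted p under 0.05, beside 1.17% of all genes), and the median log2 fold changes were 0.22, 0.10, 0.05 and 0.08, beside 0.09 for all genes. The values at the ends of the lists were 0.68 ± 0.41 for Spp1 and 0.54 ± 0.42 for Has1 against -0.54 ± 0.48 for Tnc and -0.30 ± 0.41 for Fn1 among ligands. Among receptors they were 0.61 ± 0.54 for Itga8, which also passed the minimum only through sKO, and 0.57 ± 0.41 for Sdc1 against -0.23 ± 0.42 for Itga5 and -0.22 ± 0.43 for Itga3. Among adaptors they were 0.77 ± 0.42 for the focal adhesion kinase Ptk2 and 0.47 ± 0.43 for Sdcbp against -0.33 ± 0.41 for Ctnnd1 and -0.29 ± 0.42 for Ilk, and among surface genes 0.42 ± 0.41 for Boc and 0.34 ± 0.42 for Cd63 against -0.33 ± 0.42 for Fgfr4 and -0.33 ± 0.43 for Notch3. Lama2, Fermt2 and Has2 had 0.30 ± 0.41, 0.31 ± 0.41 and -0.11 ± 0.43, and Itga4 had no listed Pol II S2P peak.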

How the data were processed

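H4K20me1 and Pol II S2P CUT&RUN libraries of cultured MuSCs (2 Ctrl and 2 sKO for each antibody) were analysed from the deposited peak tables; the IgG libraries were not used here. The authors trimmed reads with Trimmomatic 0.39, aligned them to mm10 (GRCm38, Ensembl annotation) with STAR 2.7.3a, kept unique alignments, removed duplicates with Picard 2.21.7 and normalised coverage by spike-in. Per the labels, S2 cell DNA was the spike-in, and SICER 0.0.41 and MACS2 2.1.1 are named in the submitters' processing notes without a role. The deposited unit is a score, given in whole numbers for each of an antibody's 4 libraries over 1 common list of peaks. No spike-in reads were analysed here, and the scale between libraries could not be checked. The deposited tables list each peak with at most 1 gene and give the fraction of the peak within it. Several peaks cover more than 1 gene, and such a score is credited to 1 of them. The score is not treated as a read count, since scaling has changed its variance, so a model for counts was not used.

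Scores were summed by gene identifier. Autosomal genes or peaks with a mean over 50 were tested with limma 3.58.1 (lmFit and eBayes, variance trend on) under R 4.3.3 over the whole table, on log2(score + 1) and with genotype alone in the model. The added 1 shrinks fold changes where scores are low. Features were called when p after Benjamini-Hochberg adjustment was under 0.1 with a log2 fold change beyond 0.5 or -0.5. A library's scale touches all its genes at once, so calls are not independent of each other. In simulated H4K20me1 tables with 200 changed genes, 197 were called, with 5 false calls among 13747 genes tested. For simulated Pol II S2P genes 167 of 188 were called, with 6 false calls. The simulated libraries had no scale differences between replicates, unlike the real totals given above. These counts therefore do not show the power of the real tests. Gene by gene, apart from a shift of a whole library, same-numbered Ctrl and sKO libraries did not deviate together. For ratios within a library the exact permutation test (two-sided) was used, where 0.333 is the smallest possible p. Medians and correlations were computed with Python 3.11.15, pandas 2.3.3 and scipy 1.17.1. Sequences came from RefSeq and its GRCm38.p6 genome, and gene positions and exons from GENCODE M21.

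The members and gene lists were chosen with earlier results of these data known. Named were the 7 members and their peaks, the 2 largest and 2 smallest fold changes of each list, Lama2, Itga4, Fermt2 and Has2, and the 2 genes nearest to each member. Individual Pol II S2P peaks were named after their values were seen. Alternatives were equal library totals, quantile normalisation, equal medians over tested genes (added later), a pseudocount of 10, no minimum, a replicate block, no variance trend, each library left out, only peaks with most of their length in the gene, and peaks by overlap (added later).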

Additional observations from a re-analysis of the deposited data

How the results depend on the processing

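Of the member values, the direction of several H4K20me1 differences rested on the scale between libraries. Counts of member genes called higher were 4 on the deposited scale and 1 under equal totals, quantile normalisation and equal medians, with 2 called lower under each of these and 0 on the deposited scale. Of all genes, 20.8%, 10.3% and 12.4% were called higher under these in turn and 5.69%, 11.1% and 13.1% lower. Of 11 peaks, 7 were called higher as deposited and 2 under equal totals or quantile normalisation, with 4 and 2 called lower, beside 22.6% and 11.6% of all peaks higher and 4.41% and 11.6% lower. With 1 library left out, 2 to 5 genes and 4 to 8 peaks were called higher and none lower, beside 38.2% to 97.3% of all genes and 43.8% to 97.5% of all peaks called higher; leaving out sKO replicate 1 or 2 gave 2 genes and 4 peaks each, beside 53.8% and 38.2% of all genes, Vcam1 and Itga7 being the genes. Under equal totals, quantile normalisation and equal medians in turn, the log2 fold change was -0.59, -0.53 and -0.77 for Itgb1 and -0.80, -0.66 and -0.98 for Ncam1. It was -0.072 and -0.25 for Cd44 under equal totals and equal medians, and -0.10 for Sdc4 under equal medians. Per peak, equal totals and quantile normalisation gave -0.59 and -0.37 for Itgb1 and, for the Ncam1 peaks at 282.6, 212.1 and 151.7 kb, -0.25 and -0.33, -0.77 and -0.49, and -0.84 and -1.08, and equal totals gave -0.072 for Cd44. Equal totals and equal medians change only the scale between libraries, while quantile normalisation also changes the distribution within each. Without 1 library, H4K20me1 of Ncam1 ran from -0.062 to 0.43, its peak at 212.1 kb from -0.020 to 0.45 and its peak nearest the start from -0.27 to 0.25. Pol II S2P ran from -0.074 to 0.68 for Cd44, -0.47 to 0.13 for Itga7, -0.12 to 0.41 for Ncam1, -0.067 to 0.38 for Sdc4 and -0.51 to 0.28 for Vcam1, so 1 library decided these signs.

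No member gene was called for Pol II S2P under any alternative, and of 91 peaks 2 were called higher and 2 lower under equal totals and 1 and 2 under quantile normalisation (2.12% and 0.684% of all peaks), beside 0 as deposited. Gene by gene, same-numbered libraries of Ctrl and sKO did not deviate together: the correlation of their deviations from the group means was 0.041 for H4K20me1 genes and -0.043 for Pol II S2P genes. That correlation does not see a shift of a whole library. The H4K20me1 total was higher in replicate 2 in both genotypes, and the Pol II S2P total was higher in replicate 2 of Ctrl and lower in that of sKO. With the replicate block, 12718 genes were called higher for H4K20me1, beside 12690 without it, and 0 for Pol II S2P, and 4 member genes and 0 were called, as without it. The scores give no read depth, 2 libraries per genotype and the unchecked spike-in scale limit every difference, and the broad H4K20me1 peaks over Sdc4 and Cdh15 are shared with other genes.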
